A study of Mus musculus with 12 samples.

Results

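The matrix metalloproteinases (MMPs), the ADAMTS proteases and the tissue inhibitors of metalloproteinases (TIMPs) were followed through 12 mouse heart libraries. Members were chosen by gene name alone: every Mmp gene with a number, every Adamts gene with a number and Timp1 to Timp4. The rule took 46 of the 53465 genes in the deposited table, namely 23 MMPs, 19 ADAMTS proteases and 4 TIMPs. Of these, 35 passed the filter on low counts and were tested among 16101 genes: 15 MMPs, 16 ADAMTS proteases and all 4 TIMPs.

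The libraries came from male mice that were 8 weeks old at the first injection. A17fl/fl mice (labelled ADAM17flox/flox) carried floxed alleles of Adam17, the sheddase that releases TNF-α from cell membranes. Their A17α-MHCKO littermates (labelled ADAM17alpha-MHCKO) carried the same floxed alleles with Cre under the α-MHC promoter, which is active in cardiomyocytes, so that other cells of the heart kept the gene. Mice of each genotype received 4 weekly intraperitoneal injections of doxorubicin (DOX, an anthracycline with known cardiac toxicity), 5 mg/kg each and 20 mg/kg in all, or the same volume of normal saline (NS), and hearts were taken 4 weeks after the last injection. Each of the 4 groups had 3 mice, 1 library per mouse, and the labelled tissue was heart. In bulk tissue, fewer cells of a type and less RNA per cell cannot be told apart.

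MMPs are zinc-dependent endopeptidases that cleave collagens, gelatin, elastin and proteoglycans, mostly as secreted zymogens, while the membrane-type members act at the cell surface. ADAMTS proteases are secreted relatives with thrombospondin repeats. Some trim procollagens, some cut the large proteoglycans versican and aggrecan, and others work on fibrillin fibres or on cartilage oligomeric matrix protein. TIMPs bind the catalytic site of these enzymes. In the heart, the balance of the families is known for its part in turnover of the interstitial matrix, and Timp3 is also known as an inhibitor of ADAM17 itself.

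Library totals ran from 15950717 to 21725076 counts with a median of 16413855. Adam17 stood between 43.6 and 70.9 CPM (counts scaled to library size with TMM factors) in the 6 A17fl/fl libraries and between 27.9 and 36.8 in the 6 A17α-MHCKO libraries, without overlap. Myh6, the adult cardiomyocyte myosin, was present in every library at 4535 to 17870 CPM. A17fl/fl + NS replicate 1 stood apart. It correlated with the remaining 11 libraries at 0.900 on average, where each of those reached 0.948 to 0.966. Its summed neutrophil markers (all 10 present) reached 2242 CPM against 9.26 to 72.9 elsewhere, its summed fibroblast markers 4974 against 1354 to 2322, its summed macrophage markers 2541 against 698 to 1041, and its summed cardiomyocyte markers 18951 against 28524 to 47354. Myl7 and Sln, which mark atrial myocardium, were at 0 in that library. In A17fl/fl + NS replicate 3, Sln was also at 0 and Myl7 at 0.0626 CPM, while Myl7 ran from 125 to 1019 CPM in the other 10 libraries. Results that rest on the A17fl/fl + NS group are therefore given with and without replicate 1.

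The levels of the members spanned a wide range (levels in FPKM, fragments scaled to gene length and library size, which allow genes to be compared). By mean over the 12 libraries, Timp2 (58.2 FPKM), Timp3 (53.3) and Timp1 (50.8) led, followed by the gelatinase Mmp2 (24.4), the membrane-type Mmp15 (22.7), the stromelysin Mmp3 (20.5) and Timp4 (14.3). The means of Timp1 and Mmp3 were set by 1 library: their medians were 4.52 and 6.51 FPKM, while the medians of Timp2, Timp3, Mmp2 and Mmp15 were 54.8, 52.0, 23.1 and 25.1. Among ADAMTS proteases the highest means were those of the proteoglycan-cleaving Adamts1 (12.3 FPKM), the procollagen N-proteinase Adamts2 (6.78), the aggrecanase Adamts5 (4.47) and the fibrillin-associated Adamts10 (2.93). The membrane-type Mmp14, an activator of pro-MMP2, averaged 4.79 FPKM. Neighbours in this order often overlapped. Timp2 ranged from 45.7 to 84.5 FPKM and Timp3 from 45.02 to 80.7 over the 11 other libraries, so these did not differ beyond their spread, nor did Mmp15 (11.8 to 29.7) and Mmp2 (13.9 to 43.5).

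**Figure D1:**
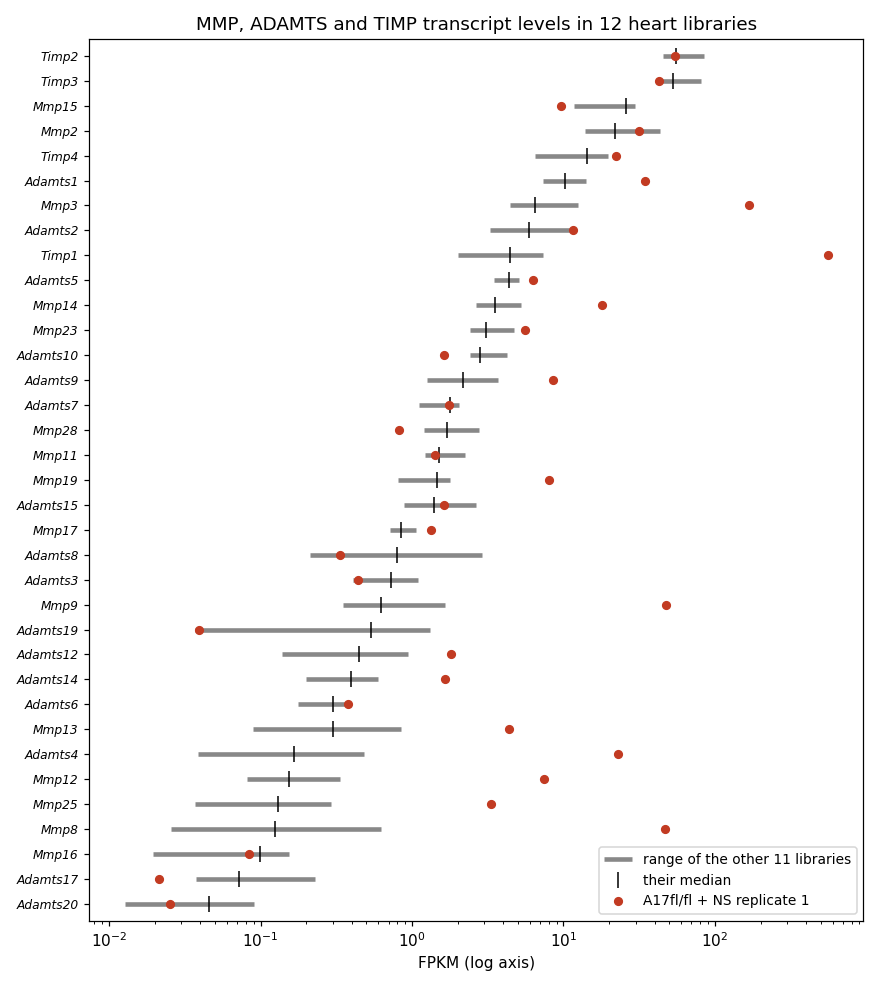
FPKM on a log axis for the 35 tested members, ordered by the median of 11 libraries. Grey bars give the range of those libraries, black ticks their median and red points A17fl/fl + NS replicate 1. The red point lies far right of the bar for Timp1 (560 FPKM), Mmp3 (168), Mmp9 (47.9), Mmp8 (46.6) and Adamts4 (22.8), and inside or near it for Timp2 (54.1) and Mmp2 (31.7).

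At the low end, 11 members were not tested. Mmp7, Mmp20, Mmp21 and Adamts13 had 0 counts in all 12 libraries, which allows levels of up to 0.130 to 0.195 CPM, depending on the library, when 3 counts are taken as the limit of a count of 0. Mmp1a had 1 count, Adamts18 had 3, Adamts16 had 5 and Mmp1b had 6 over all libraries. Mmp24 had 48 and Mmp27 had 77. Mmp10, another stromelysin, had 104 counts, every one of them in A17fl/fl + NS replicate 1 (6.002 CPM). Each library had 36 to 40 members with at least 1 count, and 18 to 28 with at least 1 FPKM. Both highest numbers belonged to A17fl/fl + NS replicate 1.

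Of the TIMPs, the inhibitors, Timp2, Timp3 and Timp4 were abundant in every library and Timp1 in 1. Timp2, which inhibits MMPs and also takes part in the activation of pro-MMP2, was at 210, 345 and 250 CPM in A17fl/fl + NS, at 244, 218 and 226 in A17fl/fl + DOX, at 206, 287 and 256 in A17α-MHCKO + NS, and at 193, 208 and 211 in A17α-MHCKO + DOX. Both DOX groups lay inside or at the lower edge of their saline groups. Timp3, the matrix-bound inhibitor, was at 366, 727 and 611 CPM in A17fl/fl + NS, at 466, 428 and 486 in A17fl/fl + DOX, at 498, 382 and 467 in A17α-MHCKO + NS, and at 420, 452 and 495 in A17α-MHCKO + DOX. The highest values of Timp3 belonged to replicates 2 and 3 of A17fl/fl + NS, while replicate 1 of that group was the lowest of all 12. Timp4, the inhibitor known for its expression in heart, was at 131, 64.1 and 134 CPM in A17fl/fl + NS, at 70.0, 57.8 and 90.4 in A17fl/fl + DOX, at 109, 37.7 and 76.8 in A17α-MHCKO + NS, and at 92.5, 102 and 111 in A17α-MHCKO + DOX. After DOX the A17α-MHCKO values all lay above the A17fl/fl values, with a log2 difference of 0.49 (SE 0.36) and an unadjusted p of 0.204. Timp4 was the 1 member (2.86%) with this order, against 6.96% of all genes. Timp1, the inducible inhibitor, was at 734, 6.10 and 3.63 CPM in A17fl/fl + NS, at 10.2, 8.31 and 5.72 in A17fl/fl + DOX, at 2.90, 6.003 and 4.71 in A17α-MHCKO + NS, and at 4.47, 9.36 and 7.53 in A17α-MHCKO + DOX. A single library thus held 71.7 times the level of the next highest.

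None of Timp2, Timp3 and Timp4 had an unadjusted p under 0.05 in any of the 7 contrasts with all 12 libraries. Without A17fl/fl + NS replicate 1, Timp3 fell with DOX in A17fl/fl mice by 0.54 on the log2 scale (SE 0.15, unadjusted p 0.00329) and was lower in A17α-MHCKO than in A17fl/fl after saline (log2 fold change -0.58, SE 0.15, unadjusted p 0.00221). These comparisons share the same pair of saline A17fl/fl libraries. Timp2 fell with DOX in A17fl/fl mice by 0.38 (SE 0.17, unadjusted p 0.0430) in that fit. No adjusted p (Benjamini-Hochberg over all genes tested) was under 0.05 for any TIMP in either fit.

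**Figure D2:**
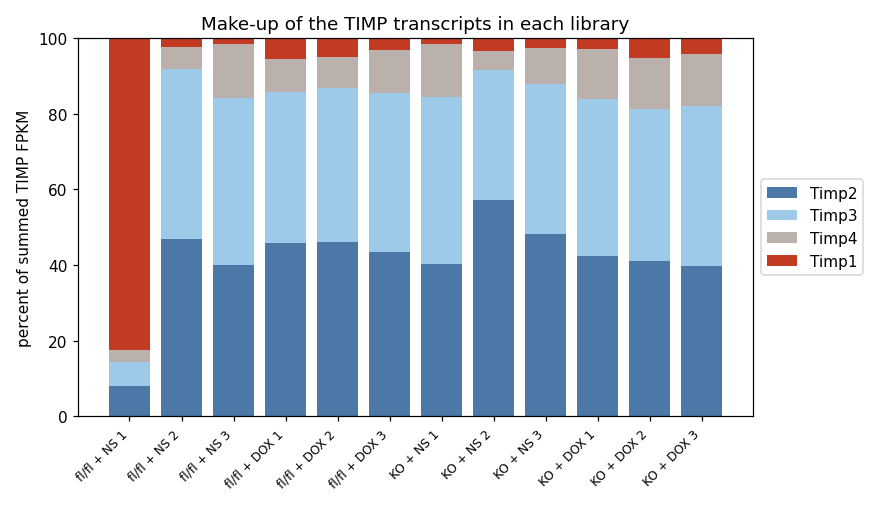
Share of each TIMP in the summed TIMP FPKM of a library, in percent, for the 12 libraries grouped by genotype and treatment. Timp2 and Timp3 held most of the sum in 11 libraries (Timp2 39.8% to 57.1%, Timp3 34.4% to 44.8%), while Timp1 held 82.5% in A17fl/fl + NS replicate 1.

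The library A17fl/fl + NS replicate 1 held the highest value of 18 of the 35 tested members (51.4%), whereas it held the highest value of 26.1% of all genes tested. In 13 members (37.1%) it lay over 2 times above the highest of the other 11 libraries, as it did for 5.51% of all genes. The 13 were Timp1, Mmp3, Mmp8, Mmp9, Mmp12, Mmp13, Mmp14, Mmp19, Mmp25, Adamts1, Adamts4, Adamts9 and Adamts14. Mmp9, the gelatinase stored in neutrophil granules, was at 179 CPM there and at 1.40 to 6.52 elsewhere. Mmp8, the neutrophil collagenase, was at 107 against 0.0621 to 1.57, and Mmp25, a membrane-anchored MMP known from leukocytes, was at 10.6 against 0.116 to 0.985. The stromelysin Mmp3 was at 287 against 8.32 to 24.7, the macrophage elastase Mmp12 at 69.6 against 0.756 to 3.33, and the collagenase Mmp13 at 11.1 against 0.239 to 2.09. These enzymes of leukocytes and of inflamed stroma moved in the same library as the neutrophil, macrophage and fibroblast markers given above; the part of those cells in the values was not tested.

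Among ADAMTS proteases the library stood out for the aggrecanase Adamts4 (174 CPM against 0.311 to 3.60), for Adamts1 (208 against 48.5 to 88.9), for Adamts9 (141 against 22.7 to 67.4) and for the procollagen N-proteinase Adamts14 (9.23 against 1.23 to 3.51). Mmp14 stood at 138 CPM against 22.7 to 39.1 and Mmp19 at 37.1 against 4.14 to 8.27. Other members did not share this. Mmp15 was lowest in this library (50.6 CPM against 71.7 to 162), as were Mmp28 (4.67 against 7.23 to 15.3), Adamts10 (16.2 against 26.1 to 41.6) and Adamts3 (2.31 against 2.33 to 5.64). Summed over a family, MMP transcripts came to 359 FPKM against 50.4 to 96.7 in the other libraries, ADAMTS transcripts to 93.7 against 23.8 to 43.1, and TIMP transcripts to 679 against 108 to 180. Without Timp1 the TIMP sum was 119 against 105 to 175.

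Position in the genome was not used to choose the members, yet 13 of the 46 lie on chromosome 9, and 14 stand next to another member in the order of protein-coding genes. Mmp13, Mmp12, Mmp1b, Mmp3, Mmp1a, Mmp10, Mmp8, Mmp27, Mmp20 and Mmp7 follow each other there with no other protein-coding gene of the RefSeq table between them, and Adamts15 sits beside Adamts8 on the same chromosome. Within the run of MMPs the level in A17fl/fl + NS replicate 1 was 287 CPM for Mmp3, 107 for Mmp8, 69.6 for Mmp12, 11.1 for Mmp13, 6.002 for Mmp10, 0.923 for Mmp27, 0.346 for Mmp1b, 0.0577 for Mmp1a and 0 for Mmp20 and Mmp7. Neighbours in this run thus ranged from strongly raised to no count at all in the same library. Exons of Mmp12 and Mmp1b overlap on opposite strands, as do those of Mmp7, Mmp11, Mmp19, Mmp24, Mmp28, Adamts4, Adamts7, Adamts8, Adamts9, Timp3 and Timp4 with genes outside the families. The kit kept the strand, but whether counting used it is not given in the sources used here, so reads of such pairs may not be separated.

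Promoter sequences from RefSeq (mouse build GRCm38.p6) matched 32 of the 46 members by symbol, with 35 entries. The 250 bases before each listed start were searched on both strands for the AP-1 site TGANTCA, which binds Fos and Jun dimers and is a classic element of stromelysin and collagenase promoters, and for the C/EBP site TTGCNNAA, and on the gene's own strand for TATAAA. The AP-1 letters were in 8 of 35 member entries (22.9%) and in 6.75% of all 32851 entries. All 8 belonged to the run on chromosome 9, where 8 of the 10 genes held the site against 0 of the 22 other members with an entry. C/EBP letters were in 6 of the 10 and 0 of the 22 (9.56% of all entries), and TATAAA in 7 of the 10 and 2 of the 22 (7.59% of all entries). The NF-κB consensus, searched on both strands, was in 2.86% of member entries and 3.9% of all. The run is also poorer in G and C (median 40.2%) than the other member entries (63.6%), and letter matches depend on base composition. A match is a description of these letters, not evidence of binding. The last 100 bases before the start are shown for the 4 genes of the run with the site and counts in A17fl/fl + NS replicate 1 that were highest there, for Mmp7, which held the site but had no count, and for Mmp8, which had 107 CPM, a C/EBP match and no AP-1 match. Capitals mark the AP-1 letters, and for Mmp12 the second of the listed starts is shown.
Mmp3, chr9:7445722-7445821, plus strand: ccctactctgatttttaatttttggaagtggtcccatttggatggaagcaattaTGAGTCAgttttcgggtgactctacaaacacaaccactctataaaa
Mmp10, chr9:7502242-7502341, plus strand: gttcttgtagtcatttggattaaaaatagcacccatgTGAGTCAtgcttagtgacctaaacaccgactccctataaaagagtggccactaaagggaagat
Mmp13, chr9:7272414-7272513, plus strand: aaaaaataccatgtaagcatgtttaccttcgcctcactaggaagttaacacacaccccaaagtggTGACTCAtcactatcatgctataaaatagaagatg
Mmp12, chr9:7347274-7347373, plus strand: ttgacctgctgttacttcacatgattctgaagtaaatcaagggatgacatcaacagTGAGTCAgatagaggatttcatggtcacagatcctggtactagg
Mmp7, chr9:7691990-7692089, plus strand: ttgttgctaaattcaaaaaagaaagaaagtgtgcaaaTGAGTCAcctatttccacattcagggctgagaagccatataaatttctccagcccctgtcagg
Mmp8, chr9:7558329-7558428, plus strand: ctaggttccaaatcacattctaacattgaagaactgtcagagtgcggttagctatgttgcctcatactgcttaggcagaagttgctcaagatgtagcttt

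The first bases of the sites lay at -46 in Mmp3, -63 in Mmp10, -35 in Mmp13 and -44 in Mmp12, counted from -1 at the base before the listed start. Among tested members with an entry, 10 stood over 2 times above the other libraries in A17fl/fl + NS replicate 1. Of these, 3 held the AP-1 letters (Mmp3, Mmp12 and Mmp13), against 0 of the 12 other tested members and 7.82% of all genes with an entry. All 3 lie in the run on chromosome 9 and none of the 12 does. The site and membership of the run therefore cannot be told apart in this contrast. The further members that stood over 2 times above had no AP-1 letters in this window, or no entry. Mmp7 and Mmp20 held the letters with no count in any library.

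The effect of DOX in A17fl/fl hearts was the first comparison of the design. With all libraries, DOX-treated A17fl/fl hearts had lower Timp1, Mmp3, Mmp8, Mmp9, Mmp12, Mmp13, Mmp19 and Adamts4, and these 8 members (22.9%) met the study's limits for a call: a log2 fold change beyond 1 in either direction, p under 0.05 before adjustment, and on average more than 1 FPKM in a compared group. Of all genes tested, 2.82% were called. Log2 fold changes ran from -6.64 (SE 1.98, unadjusted p 0.00626) for Mmp8 to -1.21 (SE 0.51, unadjusted p 0.0370) for Mmp19. In none of the 8 did the groups separate, and no member had groups that lay apart with DOX lower, against 6.11% of all genes. Without replicate 1, 0 members were called (1.24% of all genes), and Mmp8, Timp1, Mmp12, Mmp13 and Adamts4 changed sign. Without replicate 2 or without replicate 3 of A17fl/fl + NS 13 were called, and without DOX replicate 2 or 3, 5 were called. The shares of all genes called in those fits are not given here, so these counts cannot be set against them.

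Mmp9 kept its direction and an unadjusted p under 0.05 without A17fl/fl + NS replicate 1. It was at 6.52 and 3.88 CPM in the other saline libraries and at 3.96, 2.46 and 1.62 after DOX, a log2 fold change of -0.96 (SE 0.40, unadjusted p 0.0358). The groups still overlapped narrowly. A further 3 members were higher with DOX at an unadjusted p under 0.05, as were 4.11% of all genes: Adamts3, Adamts7 and Mmp15. The procollagen N-proteinase Adamts3 was at 2.31, 3.35 and 3.20 CPM after saline and at 5.41, 4.001 and 5.41 after DOX, so every treated heart lay above every saline heart (log2 fold change 0.74, SE 0.24, unadjusted p 0.0109; without replicate 1 0.59, SE 0.25, unadjusted p 0.0359). Groups lay apart with DOX higher in 3 members (8.57%), near the 7.15% of all genes. Adamts7, which cleaves cartilage oligomeric matrix protein, was at 19.3, 13.9 and 14.1 after saline and at 18.9, 20.0 and 22.9 after DOX. Its log2 fold change was 0.38 (SE 0.15, unadjusted p 0.0250) and 0.55 (SE 0.13, unadjusted p 0.00106) without replicate 1, but its unadjusted p was above 0.05 without saline replicate 2 (0.30, p 0.0899) or 3 (0.31, p 0.0848) or DOX replicate 3 (0.32, p 0.0802). Mmp15 was at 50.6, 144 and 71.7 after saline and at 154, 162 and 152 after DOX (log2 fold change 0.81, SE 0.30, unadjusted p 0.0211). It fell short of that limit without replicate 1 (0.53, unadjusted p 0.0522) or without replicate 3 (0.68, unadjusted p 0.0729). Replicates 1 and 3 were the libraries without atrial Sln. With both left out, which leaves 1 saline A17fl/fl mouse, the log2 fold change of Mmp15 was 0.12. The part of atrial tissue in this value was not tested.

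**Figure D3:**
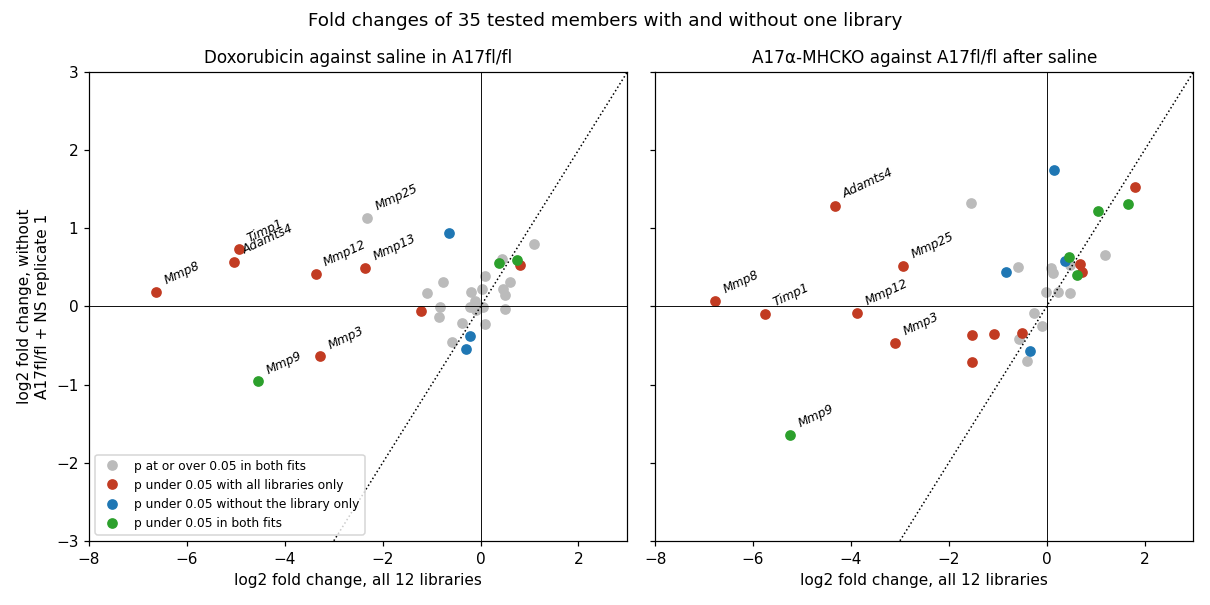
Log2 fold changes of the 35 tested members with all 12 libraries (horizontal) against those without A17fl/fl + NS replicate 1 (vertical), for DOX in A17fl/fl mice (left) and for genotype after saline (right). The dotted line marks equality. Mmp8 moved from -6.64 to 0.19 and Timp1 from -4.94 to 0.73 on the left, while Mmp9 stayed below 0 in both panels (-0.96 and -1.64 without the library).

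In A17α-MHCKO hearts, a comparison that uses none of the A17fl/fl libraries for its means, DOX went with lower Adamts3, Adamts15, Adamts2, Adamts8 and Mmp2. These 5 members (14.3%) had an unadjusted p under 0.05 and none was higher, while 2.44% of all genes were lower and 3.97% higher at that level. Mmp2, the constitutive gelatinase of cardiac fibroblasts, was at 121, 191 and 120 CPM after saline and at 67.1, 102 and 90.8 after DOX. The groups did not overlap, and Mmp2 fell by 0.73 on the log2 scale (SE 0.23, unadjusted p 0.00909; -0.48 and 0.0505 without saline replicate 2). Adamts15, a versican-cleaving protease, was at 15.6, 22.3 and 26.2 after saline and at a narrow 12.7, 11.96 and 12.3 after DOX. It fell by 0.79 (SE 0.23, unadjusted p 0.00570), and its unadjusted p stayed under 0.05 with any single library left out. Adamts3 was at 4.51, 4.15 and 5.64 after saline and at 2.33, 3.31 and 3.28 after DOX, again without overlap, and fell by 0.68 (SE 0.24, unadjusted p 0.0176), with an unadjusted p of 0.0710 without saline replicate 3 and of 0.0686 without DOX replicate 1. Adamts2, the main procollagen N-proteinase, was at 57.6, 101 and 72.6 after saline and at 32.7, 58.3 and 50.5 after DOX, where 1 treated heart lay just above the lowest saline heart. Its fall was 0.71 (SE 0.31, unadjusted p 0.0437), and the p was above 0.05 in 7 of the 12 fits that left out a library.

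Groups that did not overlap in A17α-MHCKO hearts numbered 7 members, all lower with DOX, against 7.79% of all genes lower and 9.16% higher. Beside Mmp2, Adamts3 and Adamts15 they were Adamts4, Adamts12, Mmp14 and Mmp15. Mmp14 was at 35.5, 32.2 and 39.1 CPM after saline and at 22.7, 23.8 and 24.5 after DOX. Its log2 fold change of -0.59 had an SE of 0.52 and an unadjusted p of 0.280 with all libraries, and an SE of 0.13 and an unadjusted p of 0.000781 without A17fl/fl + NS replicate 1. Adamts12, the relative of Adamts7, was at 8.64, 10.5 and 9.88 after saline and at 3.52, 6.89 and 5.40 after DOX, with an unadjusted p of 0.205 with all libraries and of 0.0105 (log2 fold change -0.88, SE 0.29) without A17fl/fl + NS replicate 1. In that fit 8 members were lower and 0 higher at an unadjusted p under 0.05, against 4.88% and 6.59% of all genes, and all 5 named above were among them. The summed fibroblast markers moved the same way, from 1678 to 2322 CPM after saline to 1431 to 1598 after DOX, with all 8 markers above 0 in every library, and their part in these falls was not tested. Summed smooth muscle and pericyte markers went from 1227 to 1541 CPM after saline to 1001 to 1333 after DOX, with overlap. Summed cardiomyocyte markers were higher after DOX without overlap, at 28524 to 36379 CPM after saline and 41248 to 45554 after DOX, and 5 of the 8 had a higher level at an unadjusted p under 0.05. Summed atrial markers ran from 3923 to 8150 CPM after saline and from 1811 to 4041 after DOX, with overlap. Summed mesothelial markers ran from 13.9 to 75.4 CPM after saline and from 3.78 to 21.3 after DOX, also with overlap. The part of these shifts in the falls was not tested either. With all libraries no fibroblast marker had an unadjusted p under 0.05 in this contrast. Without A17fl/fl + NS replicate 1, 2 of the 8 were lower at that level and 0 higher, against 4.88% and 6.59% of all genes. By the study's limits 1 member was called, Adamts8, against 0.658% of all genes.

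**Figure D4:**
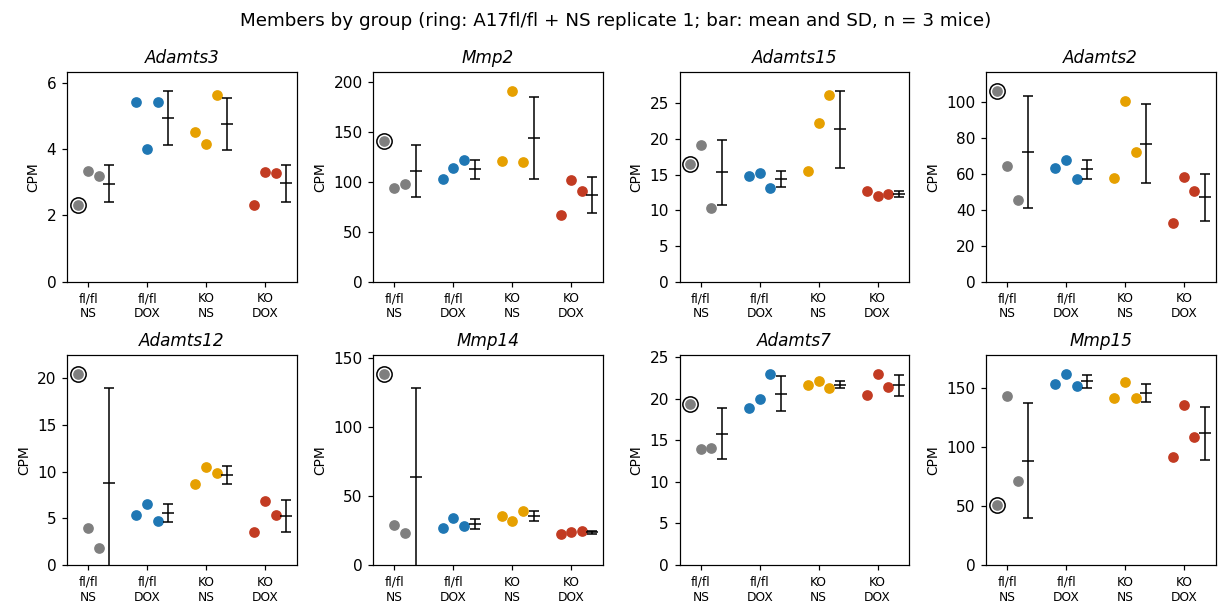
CPM of 8 members in the 12 libraries, 3 per group, with the mean and SD (n = 3) at the right of each group; bars that would pass below 0 are cut there. Adamts3 rises with DOX in A17fl/fl and falls with DOX in A17α-MHCKO; Mmp2, Adamts15, Adamts12 and Mmp14 separate the A17α-MHCKO groups, and the ringed library A17fl/fl + NS replicate 1 lies far above the rest for Adamts12 (20.4) and Mmp14 (138).

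Whether DOX acted differently in the 2 genotypes was tested as an interaction. A total of 10 members (28.6%) had an unadjusted p under 0.05 (5.99% of all genes), 5 positive (3.5% of all genes) and 5 negative (2.49%), and 7 met the study's limits (2.13% of all genes; 2 without A17fl/fl + NS replicate 1, 11 without replicate 2 of that group and 3 without A17α-MHCKO + DOX replicate 1). Adamts3 had the smallest p. Its response to DOX was lower in A17α-MHCKO by 1.42 on the log2 scale (SE 0.34, unadjusted p 0.00162), and by 1.27 (SE 0.33, unadjusted p 0.00270) without A17fl/fl + NS replicate 1. The interaction of Adamts3 kept an unadjusted p under 0.05 with any single library left out. It was -1.24 with replicates 1 and 3 of A17fl/fl + NS both left out, which leaves 1 mouse in that group. Summed endothelial markers had the same signs, at 1187 to 1351 CPM in A17fl/fl + NS, 1403 to 1615 in A17fl/fl + DOX, 1450 to 1580 in A17α-MHCKO + NS and 1263 to 1545 in A17α-MHCKO + DOX, and 2 of the 7 had a negative interaction at an unadjusted p under 0.05. Their part in the result was not tested. Mmp2 behaved alike in sign, with -0.75 (SE 0.33, unadjusted p 0.0413) and -0.96 (SE 0.30, unadjusted p 0.00813) without replicate 1, but its p was above 0.05 in 7 of the 12 fits that left out a library. Its A17fl/fl values were 140, 94.1 and 97.6 CPM after saline and 102, 114 and 121 after DOX. Adamts10, at 16.2, 27.1 and 29.3 CPM in A17fl/fl + NS, 35.97, 29.3 and 34.0 in A17fl/fl + DOX, 28.6, 41.6 and 41.1 in A17α-MHCKO + NS and 26.1, 30.9 and 27.3 in A17α-MHCKO + DOX, gave -0.85 (SE 0.31, unadjusted p 0.0177) and -0.63 (unadjusted p 0.0183) without replicate 1. Mmp15, at 142, 155 and 142 CPM in A17α-MHCKO + NS and 91.5, 136 and 108 in A17α-MHCKO + DOX, gave -1.20 (SE 0.43, unadjusted p 0.0169) and -0.92 (unadjusted p 0.0165) without replicate 1. With A17fl/fl + NS replicates 1 and 3 both left out, and so 1 mouse in that group, it gave -0.51.

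The positive interactions were those of Timp1, Mmp3, Mmp8, Mmp9 and Adamts1, all of them among the members that were high in A17fl/fl + NS replicate 1. Of these, Mmp9 alone kept an unadjusted p under 0.05 without that library, at a log2 difference of 1.49 (SE 0.56, unadjusted p 0.0215) in place of 5.08. Its A17α-MHCKO values were 1.54, 1.86 and 1.57 CPM after saline and 2.96, 2.86 and 1.40 after DOX. Without the library, 12 members had an unadjusted p under 0.05, 10 of them negative (3.3% of all genes were) and 2 positive (3.82%), and 2 met the study's limits (1.71% of all genes), Adamts8 and Mmp9. Of the 12, those above 0.05 with all libraries were Adamts2, Adamts7, Adamts12, Adamts15, Mmp14 and Timp3. No member had an adjusted p under 0.05 in any of the 7 contrasts with all 12 libraries (edgeR), nor with DESeq2; of all genes, 0.0186% had one for genotype after saline, 0.00621% for genotype after DOX and 0.0248% for genotype over both treatments, and 0% in the other contrasts. The smallest was 0.270, for Mmp9 in the comparison of genotypes after saline.

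Genotypes were next compared after saline, where the A17fl/fl + NS group enters again. With all libraries 18 of 35 members (51.4%) had an unadjusted p under 0.05, 11 of them lower and 7 higher in A17α-MHCKO, against 6.53% and 3.61% of all genes. By the study's limits 10 members were called (2.99% of all genes; 14 without A17fl/fl + NS replicate 2). Without A17fl/fl + NS replicate 1, 5 of the 18 kept an unadjusted p under 0.05 and 1 member was called (1.55% of all genes). The 5 were Mmp9, Mmp16, Adamts7, Adamts10 and Adamts17. In that fit 7 members were higher and 2 lower at an unadjusted p under 0.05, against 4.58% and 5.65% of all genes. Those beside the 5 were Mmp2, Mmp14 and Adamts12 (higher in A17α-MHCKO) and Timp3 (lower). Mmp9 was at 179, 6.52 and 3.88 CPM in A17fl/fl and at 1.54, 1.86 and 1.57 in A17α-MHCKO, so the groups did not overlap with or without the outlying library. The log2 fold change without it was -1.64 (SE 0.41, unadjusted p 0.00191). With all libraries, groups lay apart with A17α-MHCKO lower in 2 members (5.71%), Mmp9 and Adamts14, near the 5.34% of all genes. Adamts7 was higher in A17α-MHCKO, at 21.6, 22.1 and 21.3 CPM against 19.3, 13.9 and 14.1, by 0.46 (SE 0.15, unadjusted p 0.0104) and by 0.63 (SE 0.13, unadjusted p 0.000409) without the library. The membrane-type Mmp16 was at 1.54, 1.68 and 1.45 CPM against 0.923, 1.08 and 0.251, a log2 fold change of 1.05 (SE 0.46, unadjusted p 0.0453), with a p above 0.05 in 9 of the 12 fits with a library left out. Adamts17, linked to fibrillin, was at 0.864, 1.73 and 2.44 against 0.231, 0.778 and 0.564, a log2 fold change of 1.67 (SE 0.57, unadjusted p 0.0131; 1.32 and 0.0607 without A17α-MHCKO replicate 3). Both are low transcripts.

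Adamts12 came under 0.05 only without A17fl/fl + NS replicate 1, where it stood at 20.4 CPM against 3.95 and 1.82 in the other mice of that group and 8.64, 10.5 and 9.88 in A17α-MHCKO + NS. The log2 fold change then was 1.74 (SE 0.34, unadjusted p 0.000344), against 0.15 (SE 0.64) with all libraries. Adamts14, which lay at 9.23, 2.99 and 2.63 CPM in A17fl/fl and at 1.23, 2.20 and 1.69 in A17α-MHCKO without overlap, had a log2 fold change of -1.53 (SE 0.50, unadjusted p 0.0111) and of -0.71 (unadjusted p 0.0950) without that library. Mmp23 was at 18.7, 16.6 and 10.9 against 9.75, 13.0 and 9.76 (log2 fold change -0.51, SE 0.22, unadjusted p 0.0392; -0.34, unadjusted p 0.136 without it).

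Few members differed between the genotypes after DOX, the comparison without the outlying library in its means. Adamts3 was the 1 member with an unadjusted p under 0.05, at 2.33, 3.31 and 3.28 CPM in A17α-MHCKO against 5.41, 4.001 and 5.41 in A17fl/fl (log2 fold change -0.73, SE 0.24, unadjusted p 0.0120). Of all genes, 1.19% were lower and 1.52% higher at that level, and 0 members met the study's limits against 0.205% of all genes (1 without A17α-MHCKO + DOX replicate 3). The difference of Adamts3 kept an unadjusted p under 0.05 with any single library left out. In 7 members the A17α-MHCKO values all lay below the A17fl/fl values, against 7.13% of all genes: Adamts3, Adamts15, Mmp2, Mmp14, Mmp15, Mmp19 and Timp2. For Mmp2 these were 67.1, 102 and 90.8 CPM against 102, 114 and 121, with the highest A17α-MHCKO value just under the lowest A17fl/fl value. Without A17fl/fl + NS replicate 1 in the estimate of the spread, Mmp14 (-0.32, SE 0.13, unadjusted p 0.0305) and Mmp15 (-0.48, SE 0.22, unadjusted p 0.0487) also came under 0.05, as did 2.49% of all genes in that direction. The 6 DOX-treated hearts spanned low levels of Timp1 (4.47 to 10.2 CPM), Mmp3 (8.32 to 15.6), Mmp8 (0.0621 to 1.57) and Mmp12 (1.48 to 3.33).

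Over both genotypes, DOX went with a lower level of Adamts4, Mmp3, Mmp9, Mmp14 and Adamts15 at an unadjusted p under 0.05 (5 members, 14.3%, against 5.2% of all genes lower and 5.47% higher), and 3 met the study's limits (0.814% of all genes; 0 without A17fl/fl + NS replicate 1, 8 without its replicate 2, 9 without its replicate 3 and 1 without A17α-MHCKO + DOX replicate 2). Without A17fl/fl + NS replicate 1 none of Adamts4, Mmp3, Mmp9 and Mmp14 stayed under 0.05 (Mmp14 -0.21, unadjusted p 0.0560), while Adamts15 did (-0.42, SE 0.17, unadjusted p 0.0309). In that fit 2 members were higher (Adamts7 and Timp1) and 3 lower (Adamts15, Timp2 and Timp3) at an unadjusted p under 0.05. Of all genes, 7.57% were higher and 7.45% lower. The unadjusted p of Adamts15 was above 0.05 without A17fl/fl + NS replicate 2 (0.0552) or A17α-MHCKO + NS replicate 3 (0.0572). Exact two-sided permutation tests of 6 against 6 libraries on log2 CPM, which can reach 0.00216, gave 0.0649 for Mmp14 and 0.0693 for Adamts15. For genotype over both treatments, 10 members had an unadjusted p under 0.05, 8 lower (3.89% of all genes) and 2 higher (2.76%), and 5 met the study's limits (0.87% of all genes; 0 without A17fl/fl + NS replicate 1, and 9 without its replicate 2 or 3). Mmp19 was at 37.1, 7.60 and 8.27 CPM in A17fl/fl + NS, 7.99, 7.76 and 7.08 in A17fl/fl + DOX, 4.14, 8.12 and 6.10 in A17α-MHCKO + NS and 5.29, 5.65 and 5.89 in A17α-MHCKO + DOX. Its exact permutation p was 0.0108, and its log2 fold change of -0.98 (SE 0.37) became -0.40 (SE 0.16, unadjusted p 0.0283) without A17fl/fl + NS replicate 1. The exact p was 0.0303 for Adamts7, 0.0260 for Mmp16, 0.0303 for Adamts14 and 0.0390 for Mmp9, before any adjustment for the 35 members.

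Adamts8 and Adamts19 varied widely within groups. Adamts8, known for its expression in lung and heart, was at 1.90, 6.70 and 1.38 CPM in A17fl/fl + NS, at 13.3, 4.001 and 3.98 in A17fl/fl + DOX, at 4.94, 14.0 and 16.2 in A17α-MHCKO + NS and at 1.89, 1.69 and 6.86 in A17α-MHCKO + DOX. Its DOX fold change in A17α-MHCKO was -1.75 on the log2 scale (SE 0.76, unadjusted p 0.0422) and its interaction -2.83 (SE 1.08, unadjusted p 0.0228). The groups overlapped, and the unadjusted p of the former was above 0.05 when A17α-MHCKO + NS replicate 2 (-1.60) or 3 (-1.45), or A17α-MHCKO + DOX replicate 1 (-1.45) or 2 (-1.42), was left out. The interaction had an unadjusted p above 0.05 without A17fl/fl + DOX replicate 1 (-2.01, p 0.0824), A17α-MHCKO + NS replicate 3 (-2.54, p 0.0518) or A17α-MHCKO + DOX replicate 1 (-2.54, p 0.0560) or 2 (-2.50, p 0.0530). It was -1.83 with A17fl/fl + NS replicates 1 and 3 both left out, which leaves 1 mouse in that group. Adamts19, a gene known for its part in heart valves, was at 0.173 and 0.188 CPM in A17fl/fl + NS replicates 1 and 3 and at 1.26 to 5.79 in the other 10 libraries. The atrial transcripts Myl7 and Sln were also at or near 0 in A17fl/fl + NS replicates 1 and 3. Myl7 stood at 0, 1019 and 0.0626 CPM in A17fl/fl + NS, at 396, 260 and 193 in A17fl/fl + DOX, at 464, 769 and 666 in A17α-MHCKO + NS and at 125, 186 and 308 in A17α-MHCKO + DOX. Adamts8 did not follow Myl7 throughout. It was at 6.70 CPM where Myl7 was highest (1019) and at its own highest, 16.2, where Myl7 was at 666. Summed over the 5 atrial markers the A17α-MHCKO libraries held 3923 to 8150 CPM after saline and 1811 to 4041 after DOX, and the summed valve markers were at 12.005 and 24.6 CPM in A17fl/fl + NS replicates 1 and 3 against 49.1 to 129 elsewhere. The share of atrial or valve tissue in these differences was not tested.

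**Figure D5:**
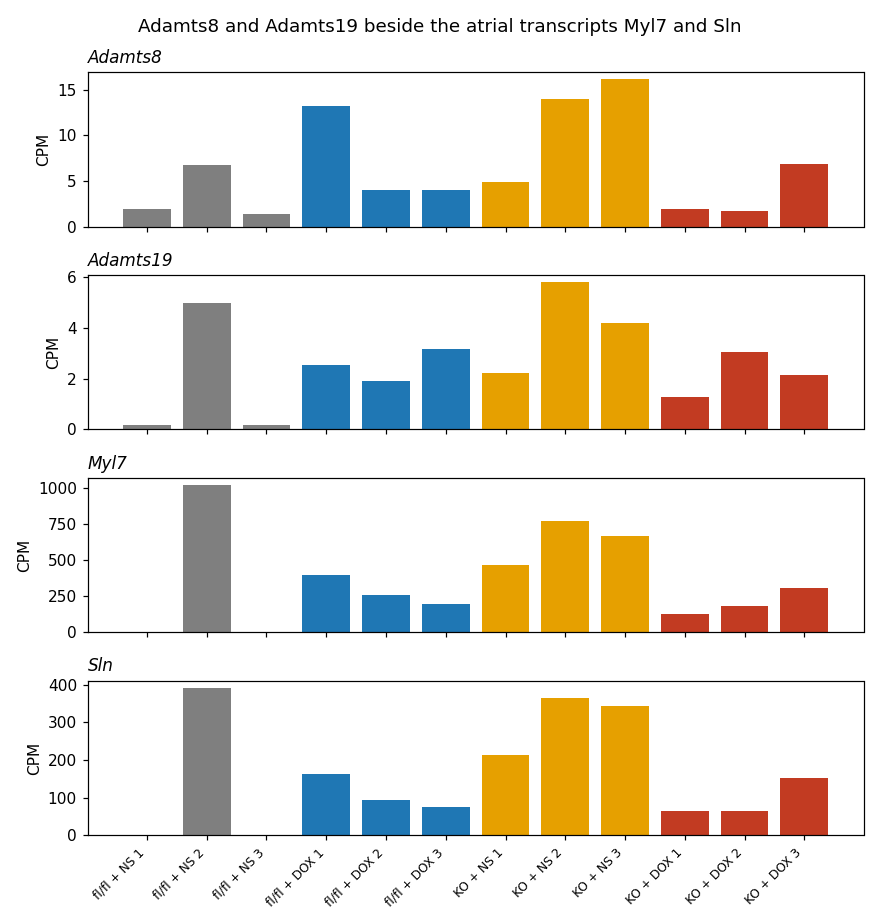
CPM of Adamts8, Adamts19, Myl7 and Sln in each of the 12 libraries (bars start at 0; KO stands for A17α-MHCKO). Adamts19, Myl7 and Sln are at or near 0 in A17fl/fl + NS replicates 1 and 3, and Adamts8 is among its lowest values there (1.90 and 1.38).

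Partners of these families were read from 4 lists. Of 9 tested genes that activate pro-MMPs or form the plasminogen system, 3 were lower with DOX in A17fl/fl mice and 5 were lower in A17α-MHCKO after saline at an unadjusted p under 0.05, with 0 higher, against 6.58% and 6.53% of all genes lower. The numbers were 2 and 3 without A17fl/fl + NS replicate 1, against 5.6% and 5.65% of all genes. Plaur, the urokinase receptor, was high in A17fl/fl + NS replicate 1 alone, at 148 CPM there and 2.91 to 6.48 elsewhere. Of the 9 tested genes of other inhibitors and clearance receptors, 0 had an unadjusted p under 0.05 with DOX in either genotype. For genotype, 2 were lower after saline and 1 lower after DOX, with 0 higher, against 6.53% and 1.19% of all genes lower. Over both treatments 3 were lower and 1 higher, against 3.89% and 2.76% of all genes. Without A17fl/fl + NS replicate 1, 0 were lower and 1 higher after saline, 1 was lower after DOX, and 2 were lower and 2 higher over both treatments.

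Of the 7 ADAMTS-like proteins, which lack the protease domain, Adamtsl2 was higher with DOX in A17fl/fl mice (log2 fold change 1.04, SE 0.37, unadjusted p 0.0162) and higher in A17α-MHCKO after saline (1.34, SE 0.37, unadjusted p 0.00383), and its interaction was -1.72 (SE 0.52, unadjusted p 0.00648). These values were, in the fit that left out A17fl/fl + NS replicate 1, 0.74 (SE 0.33, unadjusted p 0.0463), 1.04 (SE 0.33, unadjusted p 0.00940) and -1.43 (SE 0.44, unadjusted p 0.00768). These signs were also those of Adamts3. With all libraries, 2 of the 7 were higher and 0 lower at an unadjusted p under 0.05 with DOX in A17fl/fl (4.11% and 6.58% of all genes). For genotype after saline 1 was higher and 1 lower (3.61% and 6.53%), as with DOX in A17α-MHCKO (3.97% and 2.44%). Without A17fl/fl + NS replicate 1, 1 was higher and 2 lower for genotype after saline, and 2 and 2 with DOX in A17α-MHCKO. Among 12 tested substrates, Eln, the gene for elastin, fell most in A17α-MHCKO mice given DOX. It was at 174, 295 and 341 CPM after saline and at 62.0, 61.8 and 73.7 after DOX, without overlap, and fell by 2.03 on the log2 scale (SE 0.31, unadjusted p 3.69e-05). In A17fl/fl it was at 87.4, 117 and 51.4 after saline and at 118, 129 and 90.1 after DOX. With DOX in A17α-MHCKO, 1 of the 12 substrates was lower and 0 higher at an unadjusted p under 0.05, against 2.44% and 3.97% of all genes. Without A17fl/fl + NS replicate 1, 5 were lower and 0 higher, against 4.88% and 6.59%. The part of the marker shifts given above in the fall of Eln was not tested. The median log2 fold change of the 12 substrates in A17α-MHCKO mice was -0.70, beside -0.25 for the 35 members and 0.00 for all genes tested.

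Among the families, the median log2 fold change with DOX in A17α-MHCKO was lowest for the ADAMTS proteases. It was -0.55 on the log2 scale for 16 ADAMTS genes, 12 of which had a negative fold change, -0.13 for 15 MMPs and 0.24 for 4 TIMPs. Of the 35 members 11 (31.4%) had a positive fold change there, against 50.5% of all genes. Without A17fl/fl + NS replicate 1 the median of the members was -0.25 in that contrast, 0.18 for DOX in A17fl/fl, 0.40 for genotype after saline and -0.31 for the interaction, beside medians of all genes between -0.01 and 0.02. With all libraries the same medians were -0.25, -0.23, -0.27 and 0.09, so that 3 of the 4 changed sign with 1 library. These medians are descriptions without a test.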

How the data were processed

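RNA of 12 mouse hearts (labelled heart, taken as left ventricular tissue in the study's methods) was sequenced by the authors as stranded, paired-end mRNA libraries. The authors aligned reads to GRCm39 with HISAT2 (the submitters' notes also name CASAVA 1.8 and SAMtools 1.3.1) and deposited gene counts from StringTie together with FPKM values. The deposited FPKM carry no TMM factor: over 11069 genes the gene length implied by counts and FPKM varied by at most 0.00054% (CV). Counts were tested with edgeR 4.0.16 in R 4.3.3: TMM factors, its filter on low counts, and a quasi-likelihood test in a model of the 4 groups with 7 contrasts and Benjamini-Hochberg adjustment over all genes tested. Log2 CPM used a prior count of 2. FPKM served to compare genes by level. Groups were taken from the labels, with 3 mice each, and p-values cover the spread between these mice. Limits for a count of 0 (3 counts) cover counting error only.

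Alternatives were DESeq2 1.42.0, limma 3.58.1 (voom with library weights), other normalizations and filters, mean CPM over 1 as the expression limit, the 2 groups alone, a replicate block and leaving out each library. Values in every library are given for the TIMPs, for the 4 MMPs and 4 ADAMTS proteases of highest mean FPKM and for members with an unadjusted p under 0.05 in any contrast, or by range where they turn on 1 library. Partner genes other than those of smallest p, and the members with few counts, were named after their values were seen. The members and lists were chosen with earlier results of these data known. The edgeR procedure was tested on simulated counts. Promoters were read from RefSeq (GRCm38.p6), a build other than that of the counts, and gene neighbours and exon overlaps from annotation of GRCm38. Values of 1 partner gene are not reported here.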

Additional observations from a re-analysis of the deposited data

Results flagged for a closer look

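The response to DOX differed between the genotypes by the interaction test, at an unadjusted p under 0.05 and within the study's limits, for 7 members. The log2 differences were 7.77 for Mmp8, 5.58 for Timp1, 5.08 for Mmp9, 3.26 for Mmp3, 1.27 for Adamts1, -1.20 for Mmp15 and -2.83 for Adamts8. Without A17fl/fl + NS replicate 1 they were 0.93 (unadjusted p 0.493) for Mmp8, -0.0901 (0.865) for Timp1, 1.49 (0.0215) for Mmp9, 0.62 (0.206) for Mmp3, 0.55 (0.109) for Adamts1, -0.92 (0.0165) for Mmp15 and -2.55 (0.0400) for Adamts8. No adjusted p was under 0.05 (edgeR) in either fit.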

How the results depend on the processing

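Counts of called members depended on the libraries and the test. Apart from some fits without A17fl/fl + NS replicate 1, the shares of all genes called under the alternatives are not given, here or above. The counts therefore do not separate a change in the members from a change in all genes. For DOX in A17fl/fl (8 called), DESeq2 gave 4, a filter of 10 counts in every library 5, voom 0, the 2 groups alone 4, and leaving out 1 library 0 to 13. For DOX in A17α-MHCKO (1 called) leaving out 1 library gave 0 to 1, and for genotype after DOX (0 called) also 0 to 1. For genotype after saline (10 called) DESeq2 gave 4, voom 1, the 2 groups alone 5, and leaving out 1 library 1 to 14. The interaction (7 called) gave 2 with voom and 2 to 11 with 1 library left out. DOX over both genotypes (3 called) gave 5 with no filter, 0 with voom and 0 to 9 with 1 library left out, and genotype over both treatments (5 called) gave 1 with DESeq2, 1 with voom and 0 to 9. DESeq2 gave no p for 6 members by its rule on outlying counts (Adamts4, Mmp8, Mmp9, Mmp12, Mmp25 and Timp1). Any adjusted p under 0.05 arose in 1 alternative, the edgeR fit without A17fl/fl + NS replicate 2. For DOX in A17fl/fl the members were Mmp3, Mmp8, Mmp9, Mmp15 and Adamts19 (log2 fold change 3.76, adjusted p 0.0194). For genotype after saline they were Timp1, Mmp3, Mmp8, Mmp9, Mmp12, Mmp15 and Adamts19 (4.45, adjusted p 0.00761). For the interaction they were Mmp15 and Adamts19. The A17fl/fl + NS group then holds replicates 1 and 3 alone, the libraries without atrial Sln.

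A pairing of the mice by replicate number was not established. Between groups, the 18 correlations of libraries with the same number ran from -0.104 to 0.219, 3 of them over 0.1. The 36 of libraries with different numbers ran from -0.265 to 0.322, 4 of them over 0.1. Of 12 libraries, 6 correlated best with their own number. With a replicate block the counts were 3 for DOX in A17fl/fl, 0 for DOX in A17α-MHCKO, 4 for genotype after saline, 0 for DOX over both genotypes and 1 for genotype over both treatments.

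Leaving out A17fl/fl + NS replicates 1 and 3 together, chosen after seeing the data, leaves 1 library in that group, assumed to vary like the others. It gave 1 called member for DOX in A17fl/fl, 1 for genotype after saline, 1 for the interaction, 0 for DOX over both genotypes and 1 for genotype over both treatments. Log2 fold changes then changed sign for DOX in A17fl/fl in Mmp19 (0.0053), Mmp8 (0.95), Timp1 (0.41), Mmp12 (0.71), Mmp3 (0.20), Mmp13 (1.69) and Adamts4 (0.44), and for genotype after saline in Mmp8 (0.83), Mmp12 (0.22), Mmp3 (0.37), Mmp25 (0.22) and Adamts4 (1.15). The other changes of sign were Mmp3 in the interaction (-0.22), with DOX over both genotypes (0.087) and for genotype over both treatments (0.26), and Adamts4 for genotype over both treatments (0.30). Without replicate 1 alone, signs also changed, at the upper or lower end of the range over the fits that leave out 1 library. For DOX in A17fl/fl these ranges were -7.32 to 0.19 for Mmp8, -5.51 to 0.73 for Timp1, -3.93 to 0.42 for Mmp12, -2.92 to 0.50 for Mmp13 and -6.00 to 0.57 for Adamts4. For genotype after saline they were -7.35 to 0.0692 for Mmp8, -3.48 to 0.52 for Mmp25 and -4.91 to 1.29 for Adamts4, for the interaction of Timp1 -0.0901 to 6.15, and for genotype over both treatments -2.73 to 0.37 for Adamts4. With voom they changed for DOX in A17fl/fl in Timp1 (0.12) and Mmp13 (0.13), and in Adamts4 for genotype after saline (0.64) and over both treatments (0.22). The cause was not tested. Of all gene values under alternatives, 910 kept direction and side of the threshold, 281 kept direction alone and 30 changed sign.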
